A study of Homo sapiens with 2 samples.

Results

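The 50 genes described here act in G2 and mitosis, the stretch of the cell cycle in which a cell with copied DNA prepares to divide and then divides. They were taken as the rows whose symbol is on a fixed list of 50 names, out of 32738 gene rows. All 50 names matched, through 51 rows, because CKS1B names 2 gene identifiers. The second row (ENSG00000268942, a CKS1B pseudogene by current naming) held 1 and 6 UMIs and was set aside. Messenger RNA was measured in single cells of Nalm-6, an established human leukemia cell line of B-cell precursors, modified to carry a Tet-On construct that doxycycline switches on and depleted of dead cells before loading. One group carried the ETV6-RUNX1 fusion (also known as TEL-AML1), the other luciferase (LUC control), each as 1 library, and both were given 500 ng/ml doxycycline for 24 h, so the drug is shared by the control. The labels do not say whether either modified line is a single clone. With 1 library per construct there is no replicate check, and no test between the libraries was made.

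The genes belong to a programme that is transcribed in a wave. Many of their promoters are held silent in resting and G1 cells by the DREAM complex and are opened in G2 by MuvB together with the factors MYBL2 and FOXM1. Products needed first compact and untangle the chromosomes, those needed next build the spindle and attach it to the centromeres, and those needed last separate the daughter cells and destroy the mitotic cyclins.

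Promoter sequences are shown first because these genes move together and because the wave is known to depend on short promoter elements. RefSeq windows (GRCh38.p14, 250 bases before to 50 after a start) were matched by symbol for 42 of the 50 genes, which gave 51 windows, since 7 genes have several starts. Each window was searched on both strands for TTTGAA, the core of the cell cycle homology region (CHR) that MuvB binds, and for CCAAT, the box bound by NF-Y. TTTGAA was present in 34 of 51 windows (66.7%) against 15.2% of all 35116 windows of that length. Within 50 bases of the start it was present in 25 of 51 windows (49.0%) against 4.62% of all. CCAAT was present in 34 of 51 (66.7%) against 34.6% of all, and both motifs together in 27 (52.9%) against 5.90%. The letters TATAAA, the core of the TATA box, were in 2 of 51 (3.92%) against 11.5% of all. A match is a description of these letters and not a shown binding site. Matches of different motifs can overlap. The 160 bases before the start are printed for 3 genes of the early list and 3 of the late list defined below, 5 of which hold a TTTGAA match and 1 of which (TACC3) holds neither motif there. Capitals mark TTTGAA (or its reverse, TTCAAA) and CCAAT (or ATTGG).
TOP2A, chr17:40417897-40418056, minus strand: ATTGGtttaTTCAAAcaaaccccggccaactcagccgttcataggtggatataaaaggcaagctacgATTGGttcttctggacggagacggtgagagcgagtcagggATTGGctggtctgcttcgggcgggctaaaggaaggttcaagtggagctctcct
MKI67, chr10:128126424-128126583, minus strand: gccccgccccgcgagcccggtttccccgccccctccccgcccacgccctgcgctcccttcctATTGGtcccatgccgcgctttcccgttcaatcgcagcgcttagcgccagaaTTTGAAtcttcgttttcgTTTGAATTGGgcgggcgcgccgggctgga
TACC3, chr4:1720471-1720630, plus strand: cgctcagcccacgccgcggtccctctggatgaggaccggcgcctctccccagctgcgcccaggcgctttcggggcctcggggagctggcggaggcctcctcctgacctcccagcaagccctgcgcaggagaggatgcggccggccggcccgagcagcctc
CCNB2, chr15:59104986-59105145, plus strand: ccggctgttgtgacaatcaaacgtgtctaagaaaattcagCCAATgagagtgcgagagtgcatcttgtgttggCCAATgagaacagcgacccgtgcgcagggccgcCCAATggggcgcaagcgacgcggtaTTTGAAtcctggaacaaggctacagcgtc
CENPA, chr2:26785896-26786055, plus strand: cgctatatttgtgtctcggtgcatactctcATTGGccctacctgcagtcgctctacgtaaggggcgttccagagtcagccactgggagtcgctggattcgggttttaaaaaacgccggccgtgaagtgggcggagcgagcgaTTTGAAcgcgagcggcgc
CDC20, chr1:43358821-43358980, plus strand: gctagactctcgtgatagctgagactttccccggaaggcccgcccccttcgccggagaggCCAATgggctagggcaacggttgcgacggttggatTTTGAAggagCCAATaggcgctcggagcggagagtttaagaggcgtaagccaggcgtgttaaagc
In this set the TTTGAA match began 18, 29 and 65 bases before the start in CENPA, CCNB2 and CDC20, 29 and 47 bases before it in MKI67, and 151 bases before it in TOP2A. By timing, 9 of 13 windows of early genes and 7 of 12 windows of late genes held TTTGAA.

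The ETV6-RUNX1 library had 2267 kept cells with 43941536 UMIs (unique molecular identifiers, each standing for 1 captured transcript), a median of 19219 per cell. The control library had 1870 kept cells with 42762188 UMIs, a median of 22535.5. The libraries shared 16 barcodes, 7 of them among kept cells. ETV6 was at 10.1 and 6.95 CPM (UMIs of a gene scaled to the library's total), a log2 ratio of 0.55 (0.33 to 0.76), and RUNX1 at 33.8 and 34.0 CPM; these counts are not tied to the fusion transcript and check the labels only weakly. B-lineage markers were present (CD79B at 507 and 498 CPM, PAX5 at 100.5 and 89.1), and VPREB1 (718 and 1058 CPM) and IGLL1 (1126 and 1861) of the surrogate light chain differed between the libraries. CD3D, CD3E, S100A8, S100A9, HBB, HBA1, HBA2, PF4 and PPBP, markers of T, myeloid, erythroid and megakaryocyte cells, had 0 UMIs in both libraries, which allows up to 0.0683 and 0.0702 CPM. Of the same marker lists NKG7 was at 4.67 and 6.24 CPM, CST3 at 11.5 and 10.1 and LYZ at 1.52 and 1.85, and the remaining ones had from 0 to 5 UMIs.

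Levels are given below as CPM with the ETV6-RUNX1 library first. A UMI counts a transcript whatever its length, so CPM is not a per-length scale and levels of different genes are not compared; their order in the plot of levels is for display. Together the 50 genes gave 196388 and 197584 UMIs, 0.447% and 0.462% of all UMIs. Per cell they made up 0.121% of UMIs at the 10th percentile, 0.372% at the median and 0.761% at the 90th with ETV6-RUNX1, and 0.161%, 0.388% and 0.781% in the control. Between cells of 1 library the share therefore varied far more than between the libraries. After every cell was thinned to 8700 UMIs, which left 2043 and 1786 cells, a median of 16 members was detected per cell in each library, with 7 and 8 at the 10th percentile and 26 in both at the 90th.

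Of the 50 genes, 46 were measured, meaning 10 CPM or more in at least 1 library. The 4 below that floor were the checkpoint kinase TTK (7.60 and 8.23 CPM), the contractile-ring protein ANLN (6.58 and 6.76), the CDK1-activating phosphatase CDC25C (5.01 and 4.54) and GAS2L3, which links actin and microtubules (9 and 10 UMIs, 0.205 and 0.234 CPM). Just inside it lay ECT2, an exchange factor for cytokinesis, at 10.1 and 10.8 CPM, and PSRC1, a spindle protein, at 11.8 and 12.0. GAS2L3 was almost undetected in these cells, 1 of 50 members with under 1 CPM.

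**Figure D1:**
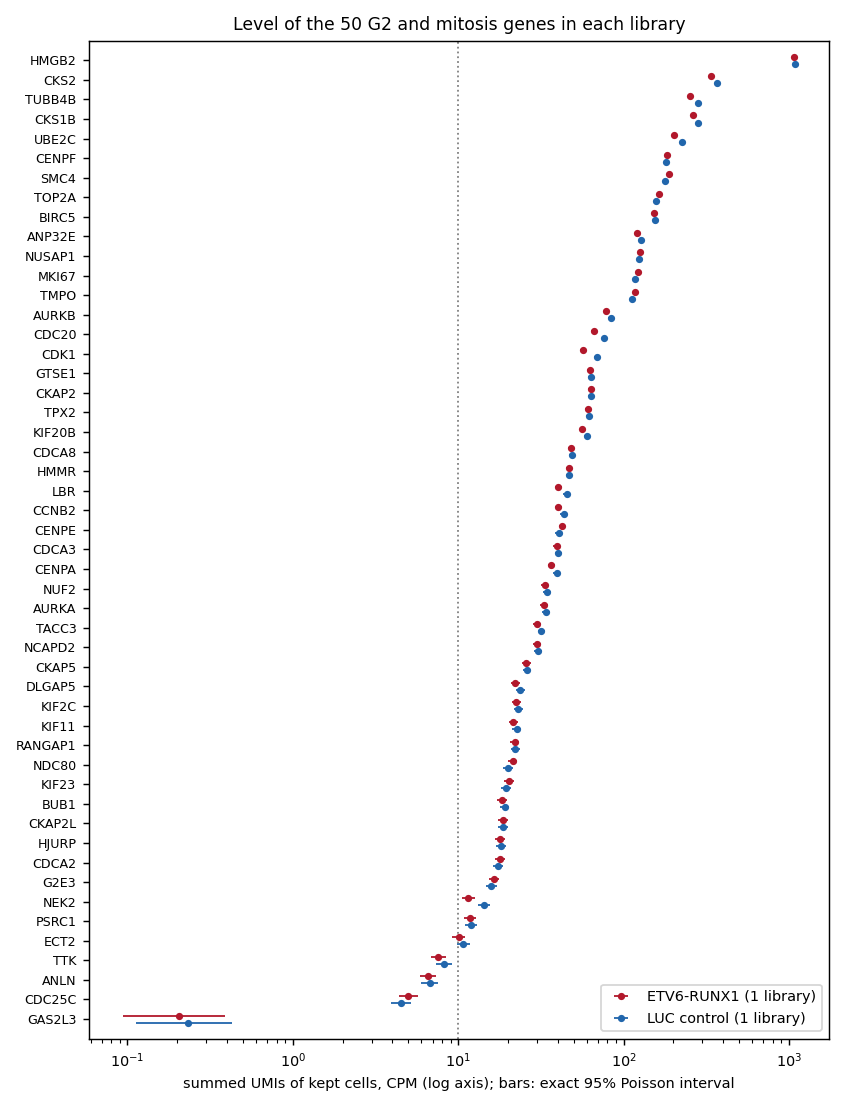
Level of each of the 50 genes in the 2 libraries, as CPM of summed UMIs on a log axis, ordered by the control; points are libraries, bars exact 95% Poisson intervals, the dotted line the floor of 10 CPM. The 2 points of a gene lie close together over the whole range, from GAS2L3 at 0.205 and 0.234 to HMGB2 at 1079 and 1090.2 CPM.

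Among the genes of chromatin and the nuclear envelope, the DNA-bending protein HMGB2 was at 1079 and 1090.2 CPM and gave 47404 and 46619 of the member UMIs. In thinned cells it had a UMI in 96.4% and 98.5% of cells. TOP2A, the topoisomerase that untangles sister chromatids, was at 164.6 and 157 CPM and had a UMI in 55.4% and 55.8% of cells. The condensin subunits SMC4 (187 and 178 CPM) and NCAPD2 (30.1 and 30.3) compact chromosomes. MKI67, the Ki-67 antigen that coats mitotic chromosomes, was at 123 and 117 CPM, and TMPO, a lamina-associated protein, at 117 and 112. ANP32E, a histone chaperone, was at 120.3 and 127 CPM, LBR, the lamin B receptor, at 40.35 and 45.3, RANGAP1, which activates the GTPase of Ran, at 21.9 and 22.2, and CDCA2, a phosphatase targeting subunit, at 17.8 and 17.5. TMPO overlaps its antisense gene TMPO-AS1 (24.5 and 19.2 CPM) and NCAPD2 overlaps MRPL51 (338 and 342 CPM) on the opposite strand; whether the counting used strand is not stated, so these 2 values are uncertain. The same holds for CDC25C, whose opposite-strand neighbour FAM53C was at 8.99 and 8.82 CPM, and for SMC4 (IFT80, 3.91 and 3.79), NUF2 (RGS5, 1.502 and 1.64) and ANLN (KIAA0895, 1.14 and 1.12).

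The kinase that drives mitosis, CDK1, was at 57.0 and 69.1 CPM, and CCNB2, a B-type cyclin that activates it, at 40.3 and 43.4. The small CDK-binding subunits CKS1B (263 and 282 CPM) and CKS2 (336 and 369) were detected in 83.7% and 86.5%, and in 90.2% and 90.65%, of thinned cells. AURKA, a centrosome kinase, was at 33.1 and 33.9 CPM and NEK2, which splits centrosomes, at 11.5 and 14.3. GTSE1, a microtubule and p53 regulator, was at 62.5 and 63.4 CPM, and the ubiquitin ligase G2E3 at 16.5 and 15.9. CKS1B has pseudogene copies, and HMGB2 and TUBB4B have close relatives (HMGB1 and other beta-tubulins), so how reads were divided there is uncertain.

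At the centromere, the large kinetochore protein CENPF was at 182 in both libraries and the motor CENPE at 42.4 and 40.5 CPM. The centromeric histone CENPA was at 36.6 and 39.5 CPM and its chaperone HJURP at 18.0 and 18.2; CENPA overlaps SLC35F6 (7.97 and 7.60 CPM) on the same strand. NDC80 (21.4 and 20.0 CPM) and NUF2 (33.4 and 34.5) pair in the complex that grips microtubules, and BUB1, a checkpoint kinase, was at 18.4 and 19.1. The chromosomal passenger complex, which corrects faulty attachments, was present through its kinase AURKB (78.5 and 83.8 CPM), survivin BIRC5 (152 and 156) and CDCA8 (48.25 and 48.9).

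For the spindle, TUBB4B, a beta-tubulin, was at 253 and 284 CPM, and the microtubule bundler NUSAP1 at 126 and 124. TPX2, which activates AURKA, was at 60.9 and 61.9 CPM, HMMR at 46.9 in both, and DLGAP5, which stabilizes kinetochore fibres, at 22.2 and 23.7. TACC3 (29.99 and 31.9 CPM) and CKAP5 (25.9 and 26.2) work together on microtubules. The motors KIF11 (21.6 and 22.6 CPM) and KIF2C (22.5 and 23.0) separate spindle poles and depolymerize microtubule ends, and CKAP2 (63.4 and 63.2) and CKAP2L (18.7 and 18.6) bind the spindle. In cytokinesis, KIF20B was at 56.5 and 59.8 CPM and KIF23 of the central spindle at 20.3 and 19.6. UBE2C (202 and 227 CPM), CDC20 (65.9 and 76.2) and CDCA3 (39.5 and 40.2) serve protein destruction around mitosis, the first 2 through the anaphase-promoting complex.

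To place cells in the cycle without using the members, each thinned cell was given an angle from 2 lists of other genes. One list held 40 S-phase genes and the other 44 genes of G2 and mitosis such as CCNB1, CCNA2 and PLK1. An angle of 0 degrees means S-phase genes above their mean over all cells, with G2 and mitosis genes at theirs. At 90 degrees this is reversed, and at 225 degrees both lists are below their means. The 12 bins of 30 degrees held from 88 to 305 cells with ETV6-RUNX1 and from 82 to 226 in the control. Cells at 0 to 30 degrees were not free of the outside G2 and mitosis genes. These summed to 1997 and 2011 CPM there, against 789 and 892 at 210 to 240 degrees.

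The members' summed level followed this circle in both libraries. It was lowest in the bin at 210 to 240 degrees, at 1825 and 1947 CPM, and highest at 90 to 120 degrees, at 8330 and 8016 CPM. The latter cells held more RNA before thinning, a median of 24841 and 27207 UMIs against 16965 and 18400; the part of RNA content in the members' level was not tested beyond thinning. In that bin 7 of 12 early, 12 of 14 late and 15 of the other 20 measured members (lists defined below) had their highest level with ETV6-RUNX1, and 7, 11 and 14 in the control.

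**Figure D2:**
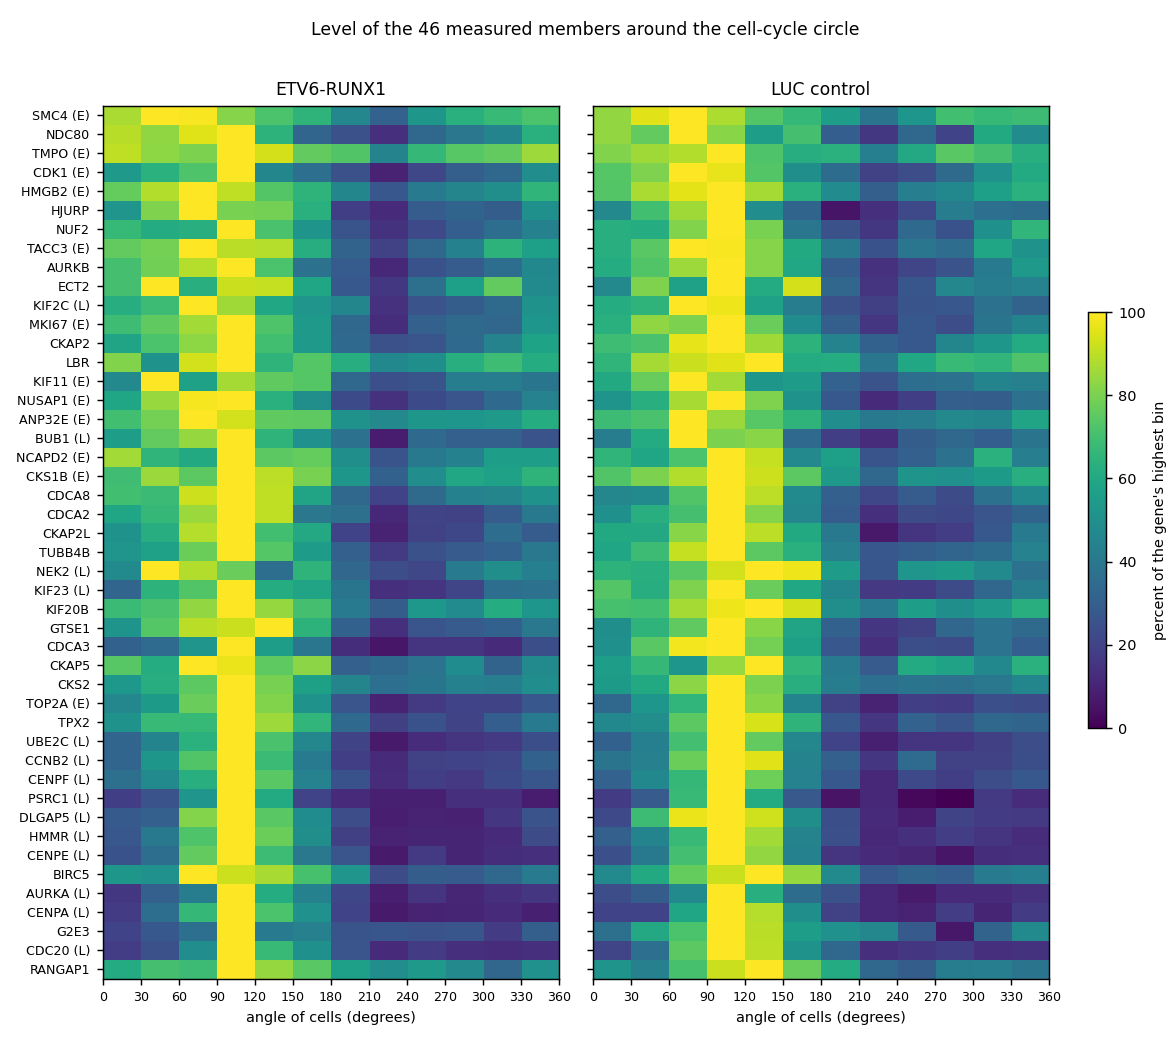
Mean level of each measured member (rows, ordered by mean angle; E and L mark the early and late lists) in 12 angular bins of cells (columns, degrees), as percent of the gene's own highest bin, for each library. Rows at the top (SMC4, NDC80, TMPO) are already bright from 0 degrees, while rows at the bottom (CENPA, CDC20) are bright mainly from 60 to 150 degrees.

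How far a member's level swung around the circle differed greatly between members. UBE2C was at 530.3 and 525 CPM in the bin at 90 to 120 degrees and at 38.4 and 46.4 CPM in the bin at 210 to 240, a difference of 13.8-fold (11.2 to 17.1) and 11.3-fold (8.98 to 14.4). CENPE differed 13.5-fold (8.79 to 21.6) and 8.26-fold (5.28 to 13.5), CENPA 13.7-fold (8.78 to 22.4) and 8.55-fold (5.42 to 14.2), and TOP2A 10.5-fold (8.49 to 13.2) and 10.3-fold (7.90 to 13.8). At the other end ANP32E differed 1.99-fold (1.66 to 2.39) and 2.10-fold (1.71 to 2.58), LBR 2.15-fold (1.58 to 2.94) and 2.43-fold (1.66 to 3.63), and TMPO 2.23-fold (1.83 to 2.72) and 2.32-fold (1.87 to 2.90). HMGB2 was in between, at 3.32-fold (3.10 to 3.55) and 3.29-fold (3.05 to 3.56), and was still at 493 and 501 CPM in the low bin. These intervals cover counting error only. CDK1 differed 10.3-fold (7.08 to 15.5) with ETV6-RUNX1 and 4.94-fold (3.45 to 7.26) in the control, with 12.1 and 21.5 CPM in the low bin. CDCA3 differed 16.5-fold (10.3 to 28.0) and 7.26-fold (4.34 to 12.9). The intervals of the 2 libraries overlap for both genes.

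The shares of cells with a UMI showed the same contrast. UBE2C had a UMI in 93.9% and 89.6% of thinned cells at 90 to 120 degrees and in 24.3% and 27.8% at 210 to 240, and DLGAP5 in 38.7% and 36.1% against 3.61% and 5.56%. CKS2, by contrast, still had a UMI in 82.0% and 83.3% of cells in the low bin. The culture is a single cell line, so no cell type that lacks these genes could show how many UMIs free RNA adds.

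The members were then divided by textbook timing. The lists were drawn up with earlier results of these data known, so they are not independent of them. The 12 early genes were of chromosome preparation and G2 entry (HMGB2, TMPO, TOP2A, SMC4, NCAPD2, ANP32E, CKS1B, CDK1 and MKI67) or of the spindle (KIF11, NUSAP1 and TACC3). The 14 late genes were of mitosis itself (CDC20, CCNB2, AURKA, CENPA, CENPE, CENPF, DLGAP5, HMMR, PSRC1, NEK2, UBE2C, KIF23, BUB1 and KIF2C). All 26 were measured. In cells at 0 to 30 degrees, where S-phase genes are high, the median early gene was at 72.0% and 71.6% of its level at 90 to 120 degrees, and the median late gene at 30.6% and 30.8%. On the far side, at 150 to 180 degrees, the medians were 74.0% and 61.8% for early and 49.0% and 44.8% for late genes. Early genes thus stood higher on both sides, and they swung less around the circle. Between the bin lowest in summed member level and 90 to 120 degrees, the median difference was 3.70-fold and 3.59-fold for early genes. For late genes it was 10.9-fold and 8.31-fold. These percentages therefore mix the size of the swing with its timing, and the part of each was not tested.

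Among the 12 early genes SMC4 stood highest, with 107% and 95.8% of its 90 to 120 degree level already at 0 to 30 degrees, followed by TMPO with 90.4% and 80.9%, and HMGB2 was at 84.15% and 73.3%. Among late genes the lowest values with ETV6-RUNX1 were those of AURKA (16.2%, and 23.6% in the control), CENPA (17.3% and 20.1%), CDC20 (18.25% and 20.8%) and PSRC1 (18.5% and 17.4%). The lists overlapped. TOP2A, listed as early, was at 46.3% and 33.4%, and KIF2C, listed as late, at 72.4% and 63.8%.

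**Figure D3:**
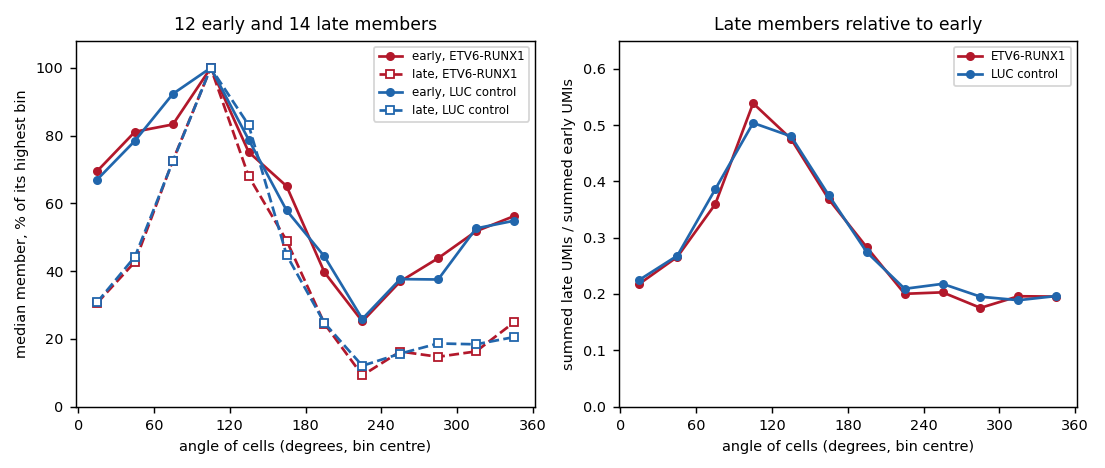
Left, the median early (filled, solid) and late (open, dashed) member in each angular bin, as percent of the member's own highest bin, for both libraries; right, summed UMIs of late members divided by those of early members. Late members start from 30.6% and 30.8% at 0 to 30 degrees, and the late to early ratio goes from 0.218 and 0.225 there to 0.539 and 0.504 at 90 to 120 degrees.

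Summed over genes, late members stood at 0.218 and 0.225 of the early UMIs at 0 to 30 degrees, at 0.539 and 0.504 at 90 to 120 degrees and at 0.2003 and 0.209 at 210 to 240 degrees. In all kept cells HMGB2 alone gave 1079 of the 2319 early CPM with ETV6-RUNX1 and 1090.2 of 2341 in the control. The summed ratio therefore rests heavily on that gene. A mean angle was computed for each gene from its 12 bin levels. The early genes had a median angle of 76.0 degrees (51.1 to 95.2) with ETV6-RUNX1 and 79.4 degrees (57.6 to 97.5) in the control. The late genes had a median of 100.3 degrees (67.1 to 117) and 102.6 degrees (76.9 to 114.6), so they followed by 24.3 and 23.3 degrees. Of the 14 late genes, 13 lay past the early median in each library, and 9 and 11 lay past every early gene.

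The order of the 46 genes was similar in the 2 libraries, with a Pearson r of 0.764 and a Spearman rho of 0.758 across genes, which share cells and anchors and are not independent. The median difference between the libraries was 5.35 degrees, and 35 genes lay within 10 degrees. SMC4 (51.1 and 57.6 degrees) and NDC80 (55.9 and 67.0) came earliest in the mean of both, and CDC20 (117 and 113), RANGAP1 (111 and 119.8) and G2E3 (117 and 109.5) latest. Genes that lie within 5.35 degrees of each other are not ordered here. NEK2 differed most, at 67.1 degrees with ETV6-RUNX1 and 114.6 in the control, on 506 and 612 UMIs in all kept cells.

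Co-variation was measured as Pearson r between genes across thinned cells, on log2(CPM/100 + 1), in each library apart. Cells of a library share its depth, and r between sparse genes is held down by counting noise. Over all 1225 pairs the median r was 0.105 with ETV6-RUNX1 and 0.0986 in the control. Among the 1035 pairs of measured members it was 0.123 and 0.112, with 228 and 198 pairs at 0.2 or more and 12 and 5 below 0. For comparison, measured S-phase genes had a median r among themselves of 0.0566 and 0.0557, and proteasome genes of 0.0728 and 0.0569. Members against S-phase genes had medians of 0.0122 and 0.000803, and members against proteasome genes of 0.0108 and 0.00644.

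UBE2C and TOP2A were the closest pair, with r of 0.546 and 0.501. HMGB2 with UBE2C had r of 0.446 in both libraries, TOP2A with CENPF 0.447 and 0.445, UBE2C with CENPF 0.437 and 0.450, and HMGB2 with TOP2A 0.459 and 0.424. These genes are also among the members with the most UMIs. Across the 46 members, the median r with other members went with log2 CPM at r of 0.690 and 0.715, so medians over lists and roles also carry the level of their genes. LBR, well detected at 40.35 and 45.3 CPM, had a median r of 0.0518 and 0.0628. CENPA, at a similar level to LBR (36.6 and 39.5 CPM), had 0.196 and 0.171.

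**Figure D4:**
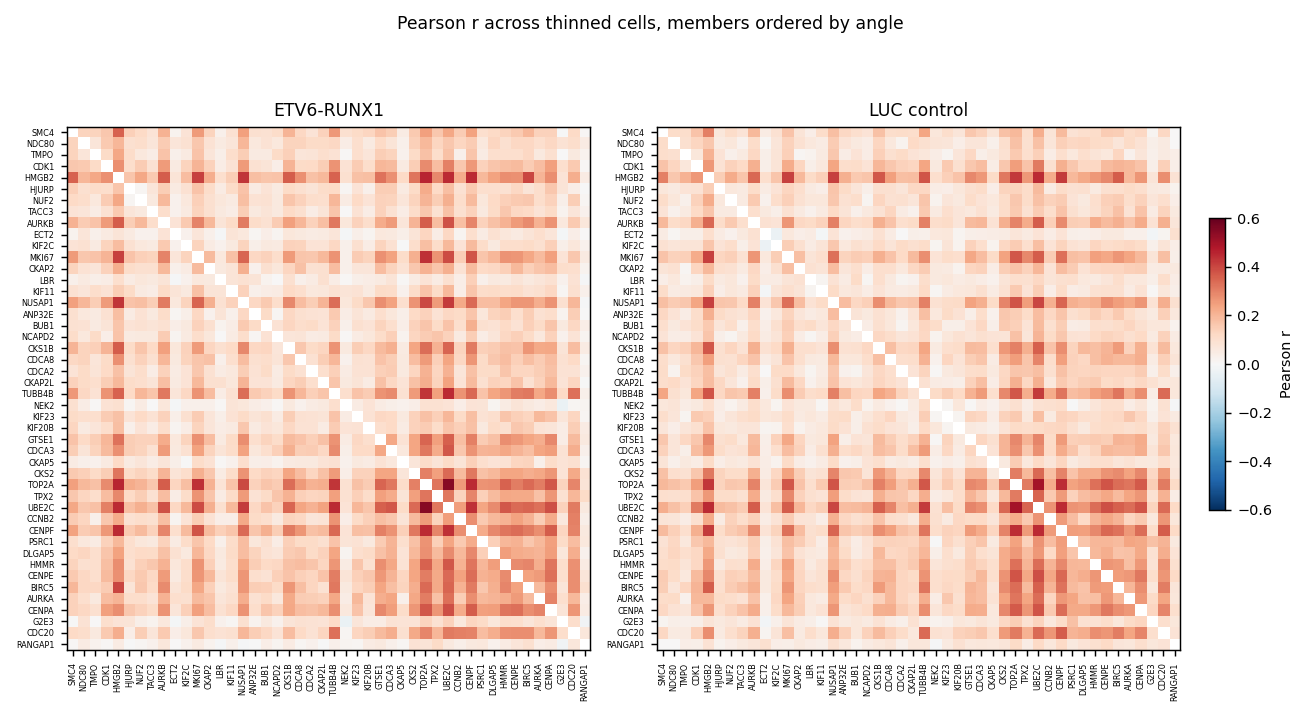
Pearson r for each pair of the 46 measured members across thinned cells of each library (colour, from -0.6 to 0.6), ordered by mean angle. The darkest rows are HMGB2, TOP2A, UBE2C and CENPF, and the lower right corner, which holds most late genes, is darker than the upper left; LBR, NEK2 and RANGAP1 are pale throughout.

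Late genes had a higher median r among themselves (0.191 and 0.163, 91 pairs) than early genes (0.147 and 0.144, 66 pairs) or early with late genes (0.140 and 0.132, 168 pairs). Pairs sharing a role (0.122 and 0.113, 169 pairs) had nearly the same median r as pairs with different roles (0.123 and 0.112, 866 pairs). The pattern of r over the 1035 pairs was similar in the 2 libraries (r of 0.924 across pairs, which share genes and their levels). In the 541 and 530 cells at 30 to 150 degrees alone the median r over measured pairs was 0.0776 and 0.0810, and that of early with late genes stayed positive, at 0.0870 and 0.0861. Even there, cells with more early transcripts held more late ones. The summed log values of early and late genes had r of 0.558 and 0.559, against 0.693 and 0.687 over all cells.

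Summed over each list, early and late genes differed in their relation to S-phase genes. The summed log values of early genes had r of 0.332 and 0.188 with the S-phase sum, and those of late genes -0.019 and -0.148. HMGB2 was highest, at 0.406 and 0.269, and CDC20 lowest, at -0.107 and -0.191. Single genes of the lists overlapped: TOP2A, listed as early, was at 0.073 and -0.053, and KIF2C, listed as late, at 0.081 and 0.044. The same S-phase list also sets the angles, so these values are not separate from the timing by angle. With the outside list of G2 and mitosis genes, the members' sum had r of 0.839 and 0.834.

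By a fixed rule, the 10 other genes closest to the members' sum (of 5908 measured genes outside the list) were TUBA1B (r of 0.642 and 0.609), TUBB (0.623 and 0.598), HMGB1 (0.591 and 0.526), UBE2S (0.514 and 0.492), CCNB1 (0.494 and 0.489), PLK1 (0.531 and 0.483), PTTG1 (0.501 and 0.475), HMGN2 (0.508 and 0.448), PIF1 (0.443 and 0.412) and STMN1 (0.442 and 0.405). TUBA1B and TUBB encode tubulins, STMN1 a tubulin-binding protein, and HMGB1 and HMGN2 chromatin proteins. UBE2S, CCNB1, PLK1, PTTG1 and PIF1 were on the outside list of G2 and mitosis genes. Because counting noise holds down r for sparse genes, this ranking can also carry the level of the genes, which was not tested.

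Between the constructs, no member reached 1.5-fold. The count was 0 of 46 higher and 0 of 46 lower with ETV6-RUNX1, against 0.185% and 0.655% of 5954 measured genes, so a count of 0 lies near the background and is not a result about the members. All 46 log2 ratios lay between -0.31 and 0.10. The median was -0.03 over the members and -0.04 over all measured genes. Ratios were below 0 for 33 of 46 members (71.7%) and for 63.8% of all genes. With TMM scaling, which raised every ratio by 0.04, 19 of 46 members were below 0 and 27 above, against 50.9% of all genes below 0. The count was also 19 of 46 with median-of-ratios scaling (50.9% of all genes) and when ribosomal protein and mitochondrial genes were taken out of the totals (49.1%).

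The lowest ratio was that of NEK2. It was at 11.5 against 14.3 CPM (log2 ratio -0.31, 95% counting interval -0.49 to -0.14), CDK1 at 57.0 against 69.1 (-0.28, -0.35 to -0.20) and CDC20 at 65.9 against 76.2 (-0.21, -0.28 to -0.14). TUBB4B (-0.17, -0.20 to -0.13), LBR (-0.17, -0.26 to -0.07), UBE2C (-0.17, -0.21 to -0.12) and CKS2 (-0.13, -0.17 to -0.10) followed. On the other side were NDC80 (0.10, -0.04 to 0.23), SMC4 (0.08, 0.03 to 0.12), TOP2A (0.07, 0.02 to 0.12), MKI67 (0.06, 0.01 to 0.12) and TMPO (0.06, 0.01 to 0.12). Intervals were wholly below 0 for 13 members (28.3%) and wholly above 0 for 4 (8.70%), against 31.9% and 13% of all measured genes. They leave out the spread between cells and between cultures.

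By timing, the 4 genes with intervals above 0 (SMC4, TOP2A, MKI67 and TMPO) were all early genes of chromatin, while CDK1, CKS1B and ANP32E, also early, had intervals below 0. Of the 14 late genes, 0 had an interval above 0 and 5 (NEK2, CDC20, UBE2C, CENPA and CCNB2) below. The shares below 0 were 25% of early and 35.7% of late genes, against 31.9% of all measured genes. Above 0 they were 33.3% and 0%, against 13%. These intervals are from plain CPM, and TMM scaling raised every ratio by 0.04. That exceeds the distance to 0 of the upper ends of CENPA, CCNB2 and ANP32E and the lower ends of CENPE, HMGB2 and NUSAP1. The interval counts therefore depend on the scaling. The median log2 ratio was -0.01 for early and -0.04 for late genes, and the difference between the lists was not tested. By role, 7 of the 8 measured kinases and regulators, 3 of 3 passenger complex genes and 3 of 3 protein destruction genes were below 0. So were 5 of 10 chromatin genes, 4 of 7 centromere genes, 9 of 12 spindle genes and 2 of 3 cytokinesis genes. These counts stand against 63.8% of all measured genes. With TMM scaling 5 of 8, 1 of 3, 2 of 3, 2 of 10, 3 of 7, 4 of 12 and 2 of 3, in the same order, were below 0, against 50.9% of all.

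How the cells lay on the circle is given here for these 2 libraries only, with intervals that cover counting error, and after 224 of 2267 and 84 of 1870 cells had been left out as too shallow. The bin low in both anchor lists held 14.9% of thinned ETV6-RUNX1 cells (95% interval 13.4 to 16.5) and 11.1% of control cells (9.67 to 12.6), and the bin at 0 to 30 degrees 8.57% (7.39 to 9.86) and 12.0% (10.5 to 13.6). When the 12 bins were given equal weight, the members' median log2 ratio was 0.07, with 33 of 46 above 0, while all measured genes had a median of -0.04 with 39.6% above 0. The 1.5-fold count stayed at 0 of 46. In that weighting KIF23 was at 0.32, CDCA2 at 0.25 and NDC80 at 0.22, NEK2 at -0.35, CDK1 at -0.19 and CDC20 at -0.10. The median early gene was then at 0.06 and the median late gene at 0.06. The angles rest on anchor genes that themselves differed between the libraries. In all kept cells the median log2 ratio was -0.10 for the outside G2 and mitosis list and -0.05 for the S-phase list. Whether equal angles mean equal cycle position in the 2 libraries was not tested, so neither the bin shares nor the equal weighting settle it.

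**Figure D5:**
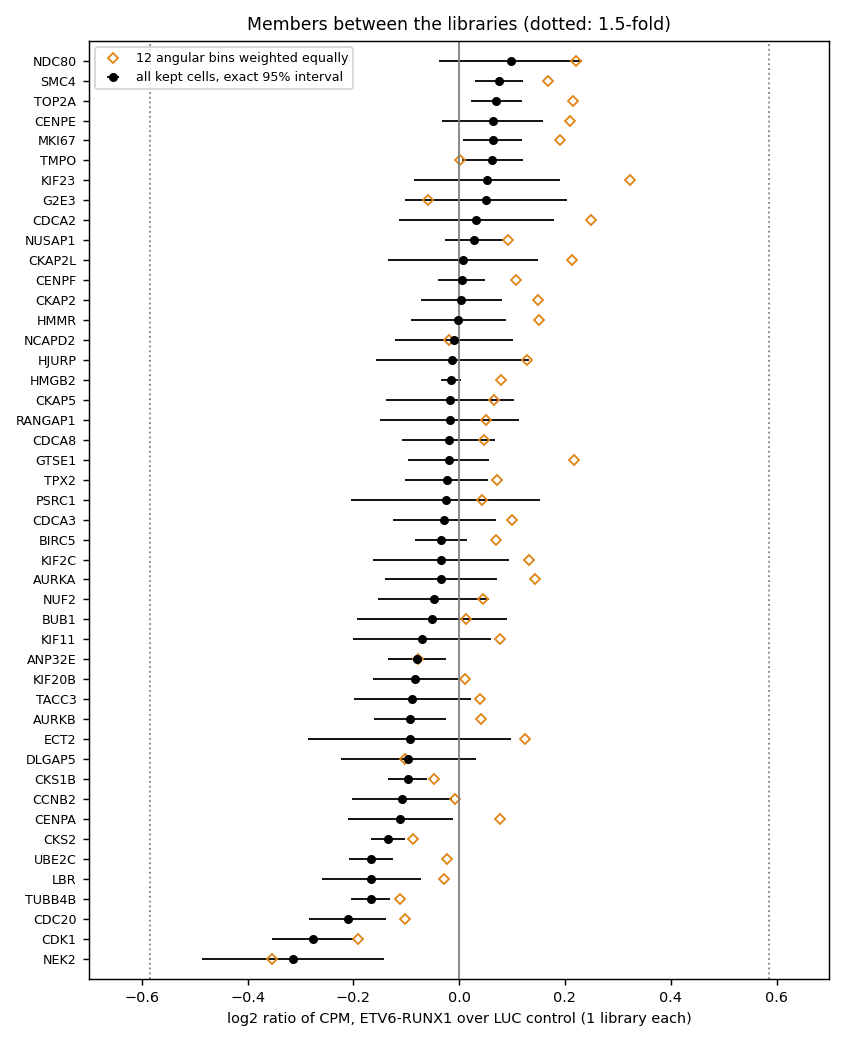
Log2 ratio of CPM, ETV6-RUNX1 over LUC control, for the 46 measured members, from all kept cells (black, with exact 95% counting intervals) and with the 12 angular bins weighted equally (open orange). Dotted lines mark 1.5-fold; all values lie inside them, from NEK2 at -0.31 to NDC80 at 0.10 in all kept cells.

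Among other genes of the pathway, 1 regulator passed 1.5-fold. Of all 5954 measured genes 0.185% were that much higher and 0.655% lower, so counts of 0 in these lists lie near the background. In the outside G2 and mitosis list, 0 of 34 measured genes reached 1.5-fold and the median was -0.10. Ratios were below 0 for 27 (79.4%), against 63.8% of all measured genes. Intervals were wholly below 0 for 13 (38.2%) and wholly above for 0, against 31.9% and 13% of all. MAD2L1, a spindle checkpoint protein, was at -0.29 (-0.35 to -0.23), securin PTTG1 at -0.25 (-0.29 to -0.21) and the kinase PBK at -0.22 (-0.32 to -0.12). CCNA2 was at 41.9 and 45.9 CPM, CCNB1 at 59.3 and 63.6 and PLK1 at 35.3 and 36.5. Over 37 measured genes of S phase the median ratio was -0.05, 0 were past 1.5-fold, and RFC2 (-0.41), TIPIN (-0.34) and RPA2 (-0.25) lay furthest from 0. The 31 proteasome genes had a median of -0.12, with 28 below 0 (90.3%, against 63.8% of all measured genes). Among 14 measured genes of the anaphase-promoting complex 0 reached 1.5-fold, and ANAPC10 (-0.24), CDC16 (0.18) and ANAPC7 (-0.17) lay furthest from 0. Of 11 measured regulators, the E2F partner TFDP1 was past 1.5-fold, at 10.6 against 20.4 CPM (-0.94, -1.11 to -0.78), with TFDP2 at 0.23 (0.15 to 0.31) and NFYA at 0.22 (0.03 to 0.42). The 2 activators of the wave themselves were close, FOXM1 at 20.4 and 20.5 CPM and MYBL2 at 140.3 and 144 CPM.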

How the data were processed

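What the authors deposited are raw counts of UMIs, 1 number for each gene in each barcode, made with Cell Ranger 3.0.2 on hg19, per the submitters' processing notes and the file headers. No normalization had been applied, and the chemistry and gene annotation are not given in the sources used here. The members and lists were chosen with earlier results of these data known. The text names all 50 members, up to 3 measured genes of each outside list with the largest absolute ratio, the 10 closest genes, and CCNA2, CCNB1, PLK1, FOXM1 and MYBL2.

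Cells with at least 1000 genes and at most 10% mitochondrial UMIs were kept. Doublets were left in; Scrublet in scanpy 1.11.5 (expected rate 0.05) called 14 and 16 cells. Summed counts were scaled to CPM and ratios given with exact Poisson intervals, shares with exact (Clopper-Pearson) ones. All 95% intervals cover counting error only. For shares, angles and correlations each cell was drawn down to 8700 UMIs, leaving out 224 and 84 shallower cells. A circular angle came from pooled z-scores of mean log values of 2 anchor lists (40 of 43 and 44 of 44 symbols matched). TMM factors came from edgeR 4.0.16. Gene overlaps came from GENCODE on GRCh38, used for neighbours only. The computation of ratios and angles was tested on simulated data.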

Additional observations from a re-analysis of the deposited data

How the results depend on the processing

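All alternatives were planned. The counts of members past 1.5-fold stayed at 0 in both directions under each of the 10 alternatives run for them. The members' median log2 ratio of -0.03 became 0.0127 with TMM scaling, 0.0124 with median-of-ratios scaling, 0.0188 when ribosomal protein and mitochondrial genes were taken out of the totals and 0.0677 with angular bins weighted equally; the median of all genes moved by 0.04, 0.04 and 0.05 under those 3 scalings, and 19 of 46 members were below 0 under each, in place of 33. The late median of -0.04 became 0.0601 with bins weighted equally and -0.166 at a floor of 50 CPM, which leaves fewer late genes. The median pairwise r of 0.105 (ETV6-RUNX1) and 0.0986 (control) became 0.0725 and 0.0661 in cells thinned to 5000 UMIs and 0.190 and 0.2002 without thinning; in the control it was 0.103 without cells called by Scrublet and 0.0933 as Spearman rho. The unthinned value also takes in the 224 and 84 shallower cells and lets depth vary between cells. The lead of early over late genes, 24.3 and 23.3 degrees, kept its sign throughout. Both lists were drawn up with earlier results of these data known, so that sign is not independent of the data. It was 27.8 and 28.6 at 5000 UMIs, 26.2 and 24.5 without thinning, 29.9 and 19.9 under the stricter cell filter (2000 genes, 7% mitochondrial), 25.3 and 22.1 without Scrublet calls, 25.1 in the control without the 5% of cells with most UMIs, and 17.4 and 19.6 with all 50 members split in 2 lists. The cause of these moves was not tested. No paired analysis was possible because each construct has 1 library.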

Other observations

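The genes that ran most strongly against the members across cells were outside the cell cycle lists. Of 5908 measured genes, those with the most negative r with the members' sum were FTL, the ferritin light chain (r of -0.404 with ETV6-RUNX1 and -0.410 in the control), and the ribosomal protein genes RPS2 (-0.352 and -0.357), RPL19 (-0.342 and -0.355), RPS24 (-0.324 and -0.317) and RPS6 (-0.321 and -0.317). All cells were thinned to the same number of UMIs, so these are shares of a fixed total. Sparse genes have r held near 0 by counting noise, so this ranking too can carry the level of the genes. The members' sum also went with the number of UMIs a cell had before thinning, at r of 0.298 and 0.327.

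The spread of UMIs per thinned cell, as variance over mean, was 3.97 and 3.42 for HMGB2, 2.99 and 2.82 for UBE2C and 2.42 and 2.07 for TOP2A, where Poisson counting alone gives 1, and 1.01 and 1.08 for LBR. The highest single cell held 41 and 35 UMIs of HMGB2 and 16 and 13 of UBE2C.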
